A study of Mus musculus with 12 samples.

Results

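The CC chemokines that act on monocytes and macrophages were followed as 10 genes of 31053 in the matrix, chosen by name: the ligands Ccl2, Ccl7, Ccl8, Ccl12, Ccl3, Ccl4, Ccl6 and Ccl9 and the receptors Ccr1 and Ccr2. All 10 were found under 1 identifier each. The cells were CD45+ cells isolated with magnetic beads from subcutaneous MC38 colon carcinomas of C57BL/6 mice, taken 17 days after implantation and read by 3′ scRNA-Seq. The labels give 4 groups of 3 mice: Vehicle or the EZH2 inhibitor PF-06821497 (EZH2i) at 100 mg/kg daily for 7 days (from day 10) or for 16 days (from day 1). The matrix numbers its libraries from 1 to 12, and neither the labels nor the files give the mouse or group of a number. EZH2i and Vehicle were therefore not compared, the libraries are not replicates of a group, and no p-value is given. The comparisons below are between cell classes within each library.

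CC chemokines are small secreted proteins, named for a pair of adjacent cysteines, that draw leukocytes along a gradient by binding G protein-coupled receptors. CCL2, CCL7 and CCL12 are the ligands of CCR2, through which inflammatory monocytes leave the bone marrow and enter tissues and tumors. CCL3, CCL6, CCL7 and CCL9 bind CCR1, and mouse CCL8 binds CCR8. In tumors, macrophages and monocytes are well-known sources of several of these ligands.

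In the GENCODE annotation of GRCm38 (mm10), the 8 ligands lie on chromosome 11 in 2 clusters. Ccl2, Ccl7, Ccl12 and Ccl8 lie on the plus strand within 81.2 kb (chr11:82035571-82116799). Ccl9, Ccl6, Ccl3 and Ccl4 lie within 91.8 kb (chr11:83572919-83664683), the first 3 of them on the minus strand and Ccl4 on the plus strand. Ccr1 (minus strand) and Ccr2 (plus strand) lie within 151.4 kb on chromosome 9 (chr9:123962124-124113557). Ccl2 overlaps Gm17268 and Ccl6 overlaps E230016K23Rik, each on the opposite strand. RefSeq promoters (GRCm38.p6) were found for 7 of the 10 genes. The 250 bases before the start of 4 of them are shown, because each pair lies side by side in 1 cluster. Ccl12 (chr11:82101595-82101844, plus strand) and Ccl8 (chr11:82114935-82115184, plus strand) were led by macrophages. Ccl6 (chr11:83593088-83593337, minus strand) and Ccl9 (chr11:83578637-83578886, minus strand) were higher in monocytes than in macrophages. Capitals mark matches, on either strand, to the AP-1 letters TGANTCA, the NF-kB-like letters GGGNNNNNCC or the PU.1 letters GAGGAAG. The C/EBP-like letters TTGCNNAA were also searched.
Ccl12: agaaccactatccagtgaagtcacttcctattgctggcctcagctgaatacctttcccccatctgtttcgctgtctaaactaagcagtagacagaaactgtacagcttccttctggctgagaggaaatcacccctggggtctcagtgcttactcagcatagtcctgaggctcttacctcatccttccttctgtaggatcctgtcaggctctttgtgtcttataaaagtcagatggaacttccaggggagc
Ccl8: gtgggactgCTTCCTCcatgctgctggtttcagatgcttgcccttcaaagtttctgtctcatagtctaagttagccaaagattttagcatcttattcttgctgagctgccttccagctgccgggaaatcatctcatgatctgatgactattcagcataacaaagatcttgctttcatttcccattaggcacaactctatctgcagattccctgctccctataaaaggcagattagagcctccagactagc
Ccl6: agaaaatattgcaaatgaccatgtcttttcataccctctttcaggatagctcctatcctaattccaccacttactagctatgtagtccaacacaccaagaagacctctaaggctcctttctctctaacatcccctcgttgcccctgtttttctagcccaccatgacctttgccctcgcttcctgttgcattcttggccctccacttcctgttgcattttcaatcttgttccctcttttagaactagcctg
Ccl9: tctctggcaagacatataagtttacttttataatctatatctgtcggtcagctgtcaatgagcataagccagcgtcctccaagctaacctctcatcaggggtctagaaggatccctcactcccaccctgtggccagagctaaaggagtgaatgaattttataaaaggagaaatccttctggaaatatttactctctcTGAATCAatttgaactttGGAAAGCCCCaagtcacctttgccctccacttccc
The Ccl9 window held an AP-1 match, 53 to 47 bases before the start, and an NF-kB-like match 35 to 26 bases before it. The Ccl8 window held a PU.1 match 241 to 235 bases before the start, and the windows of Ccl12 and Ccl6 held none of the 4. Over 32536 promoter windows of the same length, 6.73% held the AP-1 letters, 46.0% the NF-kB-like letters, 10.7% the PU.1 letters and 9.57% the C/EBP-like letters. A match is a description of letters, not a site.

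Cells were assigned to classes by UMIs of lineage genes, none of which is among the 10. Of 128912 cells kept, 106662 fell into the 6 classes: 92282 macrophages (C1qa, C1qb, C1qc), 4383 monocytes (Ly6c2, Chil3, Vcan, F13a1, Plac8 with Lyz2), 2177 dendritic cells, 3238 cells of the neutrophil gate, 4113 T cells and 469 NK cells. Levels are CPM, the UMIs of a gene per 1000000 UMIs summed over the cells of a class in a library, for libraries with at least 30 such cells. These were 12 libraries for the myeloid classes, 11 for T cells and 6 for NK cells. Because 3′ libraries give 1 end per transcript, no length correction was applied. The libraries had medians of 2291 to 15081 UMIs per cell. Of the cells kept, 4140 (3.21%) carry a barcode sequence that is also in another library. Library 4 stood apart: its macrophages held 4151 CPM of 6 heat-shock genes, against a median of 1271 CPM over libraries. UMIs of Y-linked genes were found in libraries 1 to 6 and not in 7 to 12, and the orders below were also taken within each of these sets. The paper describes its C57BL/6 mice as female, which these UMIs go against. Their source was not tested.

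The labels of 2 classes need a limit. Macrophages and monocytes were divided on a continuum of C1q, with cells between 10 and 20 C1q UMIs per 10000 in neither class. Just under this gap, at 5 to 10, were 878 of the monocytes, and just above it, at 20 to 30, were 1708 of the macrophages. Of the macrophages, 13990 also passed the monocyte list. The monocytes also held 4575 CPM of Apoe, a macrophage gene, as a median over libraries, against 18912 CPM in macrophages. The neutrophil gate was mixed. Of its cells, 1137 had under 50 UMIs per 10000 of S100a8 and S100a9, the main calprotectin genes of neutrophils. These cells held 15038 CPM of Cd74 (the MHC class II invariant chain), against 773 CPM in the remaining 2101. Values for these 2101 S100-high cells, a narrowing chosen after the values were seen, are given beside those of the gate, over the 10 libraries with at least 30 of them (not libraries 5 and 6).

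Macrophages were above 50 CPM, as a median over libraries, for all 10 genes and monocytes for 9, all but Ccl8. The neutrophil gate was above it for 7, S100-high cells for 6, T cells for 3 and dendritic and NK cells for 2 each. The share of all genes above 50 CPM in each class was not counted, so these numbers only describe the 10 genes. Summed over all libraries, macrophages made up 86.5% of the gated cells and 90.8% of their UMIs, and they held 99.6% of the Ccl8, 99.0% of the Ccl12, 97.1% of the Ccl7 and 93.5% of the Ccl2 UMIs. Ccr2, Ccl4 and Ccl3 had the lowest shares in macrophages by this sum. Macrophages held 82.9% of the Ccr2 UMIs, with 13.6% in monocytes, which were 4.11% of the cells. They held 80.7% of the Ccl4 UMIs, with 14.1% in the neutrophil gate, which was 3.04% of the cells. They held 68.4% of the Ccl3 UMIs, with 27.2% in the neutrophil gate. Over libraries, the share of Ccl3 in the gate had a median of 7.12% and ran from 0.368% in library 6 to 61.0% in library 4. That of Ccl4 had a median of 4.32% and ran from 0.293% to 53.4% in the same libraries. The gate's own share of the gated cells had a median of 2.89% and ran from 0.557% to 12.7%, again in libraries 6 and 4.

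**Figure D1:**
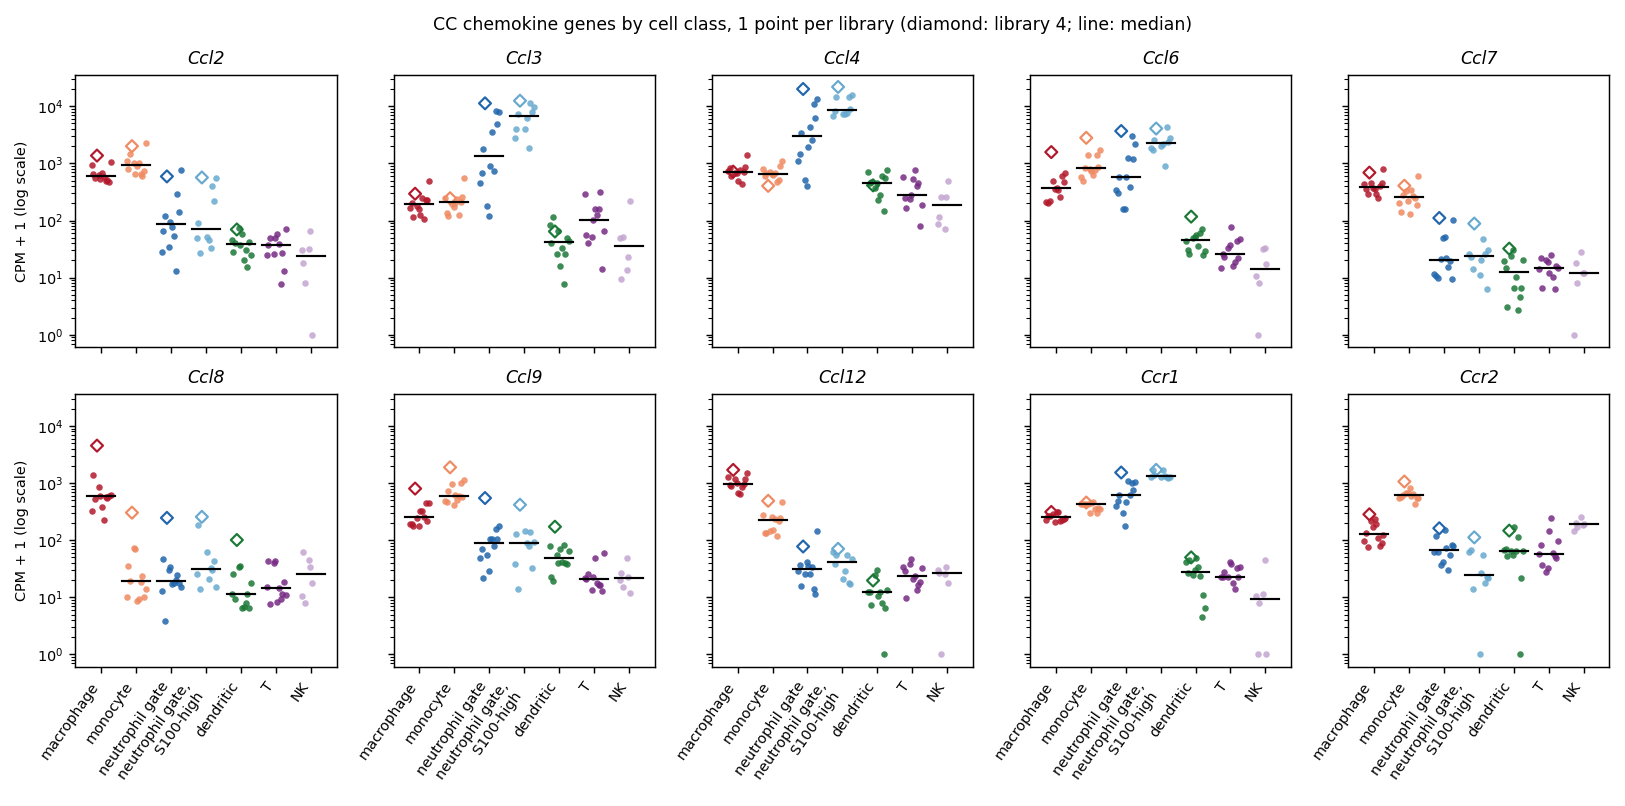
CPM + 1 on a log axis for the 10 genes, with 1 point per library with at least 30 cells of a class, an open diamond for library 4 and a line at the median; a point at 1 is a library with no UMI. Ccl8 and Ccl12 stand highest in macrophages, Ccr2 in monocytes, and Ccl3, Ccl4 and Ccr1 in the S100-high cells of the neutrophil gate.

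Among the CCR2 ligands, Ccl2 was highest in monocytes and Ccl12 in macrophages. Ccl2, the main ligand of CCR2, ran from 602 CPM through a median of 948 to 2231 CPM in monocytes. In macrophages it ran from 480 through 594 to 1368 CPM. The ranges overlapped, but within each library monocytes were higher, in 12 of 12 (median log2 ratio 0.47 on CPM + 5, range 0.24 to 1.38). Ccl12, a mouse CCR2 ligand close to Ccl2 in sequence, had the opposite order. It ran from 649 through 972 to 1698 CPM in macrophages and from 119 through 223 to 488 CPM in monocytes. These ranges did not overlap, and macrophages were higher in 12 of 12 libraries (median log2 ratio 2.17, range 1.45 to 2.98). Ccl7, which binds CCR1, CCR2 and CCR3, lay between them. It ran from 250 through 384 to 792 CPM in macrophages and from 131 through 257 to 589 CPM in monocytes, and macrophages were higher in 10 of 12 libraries (not in 8 and 9). In each of the other classes the median of Ccl7 was at most 19.5 CPM. S100-high cells held 23.4 CPM.

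Ccl8, the gene with the largest share of its UMIs in 1 class, was highest in macrophages. In macrophages it ran from 225 CPM (library 8) through 582 to 4523 CPM (library 4), and the second highest library had 1378 CPM (library 2). Monocytes ran from 7.72 through 18.0 to 303 CPM, again with library 4 highest and 72.3 CPM next (library 5). Macrophages were higher in 12 of 12 libraries (median log2 ratio 4.53, range 3.01 to 5.43), although the macrophages of library 8 were below the monocytes of library 4. Without library 4, the macrophage median was 580.0 CPM and the highest value 1378 CPM. The other 4 classes had medians of 10.5 to 24.5 CPM. Between neighbours in that order, monocytes included, the higher class was higher in 4 of 6, 8 of 12, 7 of 11 and 8 of 11 libraries.

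Ccl6 and Ccl9, CCR1 ligands whose genes are neighbours, were higher in monocytes than in macrophages. Ccl9 ran from 412 through 605 to 1885 CPM in monocytes and from 177 through 250 to 800 CPM in macrophages, with monocytes higher in 12 of 12 libraries (median log2 ratio 1.24, lowest 0.66). The highest value of each was that of library 4. Ccl9 in S100-high cells had a median of 89.1 CPM, below macrophages in 10 of 10 libraries. Ccl6 had the same order of monocytes and macrophages but not of neutrophils. It ran from 493 through 824 to 2799 CPM in monocytes and from 205 through 362 to 1575 CPM in macrophages (monocytes higher in 12 of 12). The neutrophil gate, at 158 through 572 to 3680 CPM, was lower than monocytes in 7 of 12 libraries. S100-high cells, at 890 through 2259 to 4283 CPM, were higher than monocytes in 10 of 10 libraries, so the order of these classes depends on how the gate is drawn.

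Ccl3 and Ccl4, the macrophage inflammatory proteins MIP-1α and MIP-1β, were highest in the neutrophil gate. Ccl3 there ran from 120 CPM (library 6) through 1346 to 11242 CPM (library 4), above monocytes in 10 of 12 libraries (not in 5 and 6). The makeup of the gate differed between these libraries. S100-high cells were 16 of its 126 cells in library 5, 23 of 171 in library 6 and 823 of 1029 in library 4. The median log2 ratio of Ccl3 in the whole gate to monocytes was 3.18 over all libraries and 1.60 in libraries 1 to 6. It was 2.50 without any 1 of libraries 3, 4, 8, 10, 11 and 12, and 3.85 without any 1 of the others. In S100-high cells it ran from 1881 through 6770 to 12475 CPM, above every monocyte and macrophage value. The median log2 ratio of S100-high cells to monocytes was 4.77 (lowest 3.44). Monocytes (median 206 CPM, 117 to 554) and macrophages (median 191 CPM, 103 to 491) did not separate: monocytes were higher in 8 of 12. Ccl4 was also highest in these cells. It had a median of 8597 CPM in S100-high cells (6659 to 21768 CPM), 2980 CPM in the whole gate (406 to 20020 CPM), 711 CPM in macrophages (429 to 1402 CPM) and 652 CPM in monocytes (403 to 1094 CPM). Macrophages were above monocytes in 6 of 12. In libraries 1 to 6 alone, the whole gate was closer to macrophages, at a median log2 ratio of 0.73 against 2.46 over all 12. The median log2 ratio of S100-high cells to macrophages was 3.69 (lowest 3.20).

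Thinned to 500 UMIs per cell, 59.8% of S100-high cells kept a Ccl3 UMI against 7.57% of macrophages. Unthinned, the shares were 70.1% (exact 95% interval 68.1 to 72.1%, counting error only) and 33.3% (33.0 to 33.6%), at medians of 1496 and 5054 UMIs per cell. All these shares pool the libraries. Library 4, the highest for Ccl3 in S100-high cells, gave 823 of the 2101 S100-high cells. In B cells, a background class of 243 cells with a median of 1254 UMIs, 2.06% had a Ccl3 UMI, and 0.626% when thinned. Library 10 gave 143 of these B cells. S100-high cells also held more of 9 immediate early genes, such as Fos and Atf3: 11788 to 21080 CPM over libraries, against 3505 to 6813 CPM in macrophages. The part of this in the Ccl3 and Ccl4 levels was not tested.

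**Figure D2:**
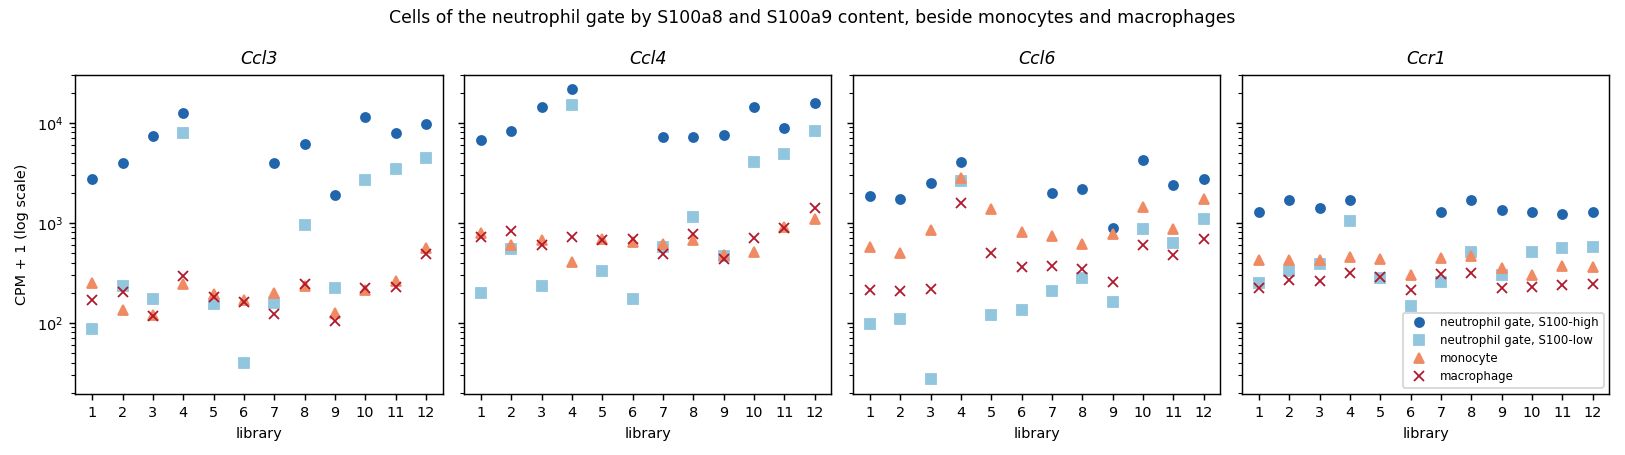
CPM + 1 on a log axis of Ccl3, Ccl4, Ccl6 and Ccr1 in each library with at least 30 cells, for the neutrophil gate divided at 50 S100a8 and S100a9 UMIs per 10000, monocytes and macrophages. S100-high cells lie above monocytes in all 10 libraries for each of the 4 genes, while S100-low cells range widely, with library 4 at 7846 CPM of Ccl3 and library 6 at 39.0 CPM.

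Ccr1, the shared receptor of CCL3, CCL6, CCL7 and CCL9, had the least spread between libraries in S100-high cells, monocytes and macrophages. S100-high cells ran from 1215 through 1313 to 1702 CPM, monocytes from 302 through 425 to 469 CPM and macrophages from 211 through 253 to 315 CPM. S100-high cells were above monocytes in 10 of 10 libraries (median log2 ratio 1.83) and monocytes above macrophages in 12 of 12 (0.57). The highest library was 1.40 to 1.55 times the lowest in these classes. In the whole neutrophil gate the median was 611 CPM (176 to 1528 CPM), above monocytes in 3 of 6 of libraries 1 to 6 and in 6 of 6 of libraries 7 to 12.

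Ccr2, the receptor by which inflammatory monocytes are recruited, was led by monocytes, at 429 through 605 to 1063 CPM. NK cells came next, at 145 through 188 to 254 CPM, lower in 6 of 6 libraries. Macrophages ran from 74.3 through 126 to 283 CPM, below monocytes in 12 of 12 (the log2 ratio of macrophages to monocytes had a median of -2.11). NK cells were above macrophages in 5 of 6 (not in library 7). A Ccr2 UMI was found in 77.9% of monocytes (exact 95% interval 76.7 to 79.2%), 33.9% of NK cells (29.6 to 38.4%), 36.0% of macrophages, 5.66% of S100-high cells and 2.06% of B cells. Thinned to 500 UMIs, the shares were 27.3%, 8.57%, 7.88%, 1.62% and 0.487% in the same order. Of the 6758 stretches of 50 bases in Ccr2 transcripts, 129 also occur in other genes. No stretch of Ccl2, Ccl3, Ccl4, Ccl6, Ccl7, Ccl8, Ccl12 or Ccr1 occurs in another gene, and 59 of 2996 of Ccl9 do.

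Across all genes with a median of at least 20 CPM in either class, 1.28% were at least 2-fold higher in macrophages than in monocytes in every library, and 1.32% at least 2-fold lower. Of the 10 chemokine genes, Ccl8 and Ccl12 were past this fold in the higher direction and Ccr2 in the lower. Against dendritic cells, 6.89% of genes were higher in macrophages by this measure and 4.44% lower, with none of the 10 lower. Among the higher were 7 of the 10: Ccl2, Ccl6, Ccl7, Ccl8, Ccl9, Ccl12 and Ccr1. Against the neutrophil gate, 2.92% were higher, among them Ccl7, Ccl8 and Ccl12, and 1.05% lower, with none of the 10. Against S100-high cells, 16.4% were higher, with the same 3 genes, and 7.1% lower, among them Ccl3, Ccl4, Ccl6 and Ccr1. Monocytes were higher than the neutrophil gate for 1.36% of genes, among them Ccl2, Ccl7, Ccl9, Ccl12 and Ccr2, and lower for 0.435%, with none of the 9 tested. Against S100-high cells they were higher for 10.8%, among them Ccl7, Ccl9, Ccl12 and Ccr2, and lower for 4.61%, among them Ccl3, Ccl4 and Ccr1. NK cells were higher than T cells for 0.757% of genes and lower for 1.24%, with none of the 9 tested.

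In T cells, 7 of the 10 genes stood at 2.62 to 10.3% of their macrophage level, as medians over libraries. This share was not taken over all genes, so the values only describe the genes named. T and NK cells were also gated under a limit of C1q UMIs, which can itself lower their share of macrophage transcripts. The part of this limit in the shares was not tested. The macrophage genes Apoe, Lyz2, Adgre1 and Csf1r stood in T cells at 3.03 to 4.04% of their macrophage level, as medians over 11 libraries. Ccl12 (2.62%), Ccl8 (2.91%) and Ccl7 (3.24%) stood within or below this range. Ccl2 (5.71%), Ccl6 (7.09%), Ccr1 (9.61%) and Ccl9 (10.3%) stood somewhat above it. Ccl4 (40.4%), Ccl3 (51.7%) and Ccr2 (60.0%) were well above it. In CPM, T cells ran from 80.3 through 275 to 759 for Ccl4, from 13.4 through 102 to 320 for Ccl3, and from 27.2 through 56.9 to 248 for Ccr2. The neutrophil gene S100a8 had a median of 5.52 CPM in T cells, against 23821 CPM in S100-high cells. In NK cells Ccr2 stood at 136% of its macrophage level, Ccl4 at 26.0% (median 184 CPM) and Ccl3 at 21.3% (35.0 CPM). The other 7 stood at 2.36 to 11.1%.

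Dendritic cells held Ccl4 (145 through 454 to 764 CPM, 56.6% of the macrophage level) and Ccr2 (0 through 63.3 to 172 CPM). Cells with at least 2 UMIs of Xcr1 and Clec9a, markers of type 1 conventional dendritic cells, were compared with cells without, in the 6 libraries with at least 30 of each. Ccl4 was higher in the positive cells in 6 of 6 (median 627 against 228 CPM), and Ccl9 was lower in 6 of 6 (7.46 against 122 CPM). Cells with Fscn1 and Ccr7, markers of mature migratory dendritic cells, held less Ccl4 (82.1 against 652 CPM) and less Ccr2 (13.3 against 139 CPM), each in 8 of 8 libraries. The genes of these lists are themselves in the dendritic gate, so cells without 1 list joined the class by its other genes. Whether Ccl4 differs between cells with Xcr1 and Clec9a and the other cells without Fscn1 and Ccr7 was not tested. Only 2 libraries allowed the comparison for Cd209a, a marker of monocyte-related and type 2 dendritic cells. Positive cells were higher in both for Ccr2 (489 against 48.1 CPM), Ccl9 (484 against 65.8 CPM) and Ccl6 (346 against 65.9 CPM).

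Within macrophages, Ccl8 and Ccr2 differed most, in opposite directions, in the states given by Mrc1, Folr2, Cbr2 and Lyve1 and by Ly6c2, Chil3 and Plac8, and Ccl6 differed most in those given by Arg1, Cxcl9 and Mki67 with Top2a. States were given by cells with at least 2 UMIs of a gene list against cells with none, in all 12 libraries. The lists hold none of the 10 genes. The 40372 cells with Mrc1, Folr2, Cbr2 and Lyve1, scavenger and resident-type macrophage genes, held a median of 787 CPM of Ccl8 against 186 CPM in the 32611 cells without. Ccl8 was higher in 12 of 12 libraries (median log2 ratio 2.25, lowest 0.80). Ccl7 (0.65), Ccl12 (0.52) and Ccl6 (0.46) were also higher in 12 of 12. Ccr2, at 88.4 against 216 CPM, was lower in 12 of 12 (median log2 ratio -1.25), as were Ccl4 (-0.49) and Ccl3 (-0.36). Cells with these genes were deeper, at a median of 8278.5 UMIs against 3151 in cells without, as were cycling cells (10059 against 4194) and cells with Arg1 (7297 against 3599). The part of depth in the values by state was not tested.

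The 18918 macrophages that also held the monocyte genes Ly6c2, Chil3 and Plac8 differed in the reverse direction for Ccr2 and Ccl8. Ccr2 was 294 against 67.8 CPM, higher in 12 of 12 libraries (median fold 4.28), and Ccl8 was 231 against 676 CPM, lower in 12 of 12 (-1.46). Ccl9 (0.30) and Ccr1 (0.26) were higher in 12 of 12. Cells with the MHC class II genes H2-Ab1 and H2-Aa, which were most macrophages (83405 against 4444), held more Ccr2 (133 against 63.5 CPM, 12 of 12). They held less Ccl2 (median log2 ratio -0.69), Ccl7 (-0.74) and Ccl6 (-0.39), each in 12 of 12. The 25034 cells with Cxcl9, an interferon-induced chemokine, held less Ccl6 (-0.91), Ccl9 (-0.71), Ccl7 (-0.40), Ccl2 (-0.30) and Ccr1 (-0.13), each in 12 of 12. Cycling cells (Mki67, Top2a) held less Ccl6 (-0.90), Ccl9 (-0.56), Ccr2 (-0.36) and Ccr1 (-0.25), each in 12 of 12, and less Ccl8 (-0.74) in 11 of 12. Cells with Arg1, which encodes arginase 1, held more Ccl2 (0.34) and Ccl7 (0.28) in 12 of 12, and more Ccl6 (0.78) and Ccl9 (0.73) in 11 of 12.

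**Figure D3:**
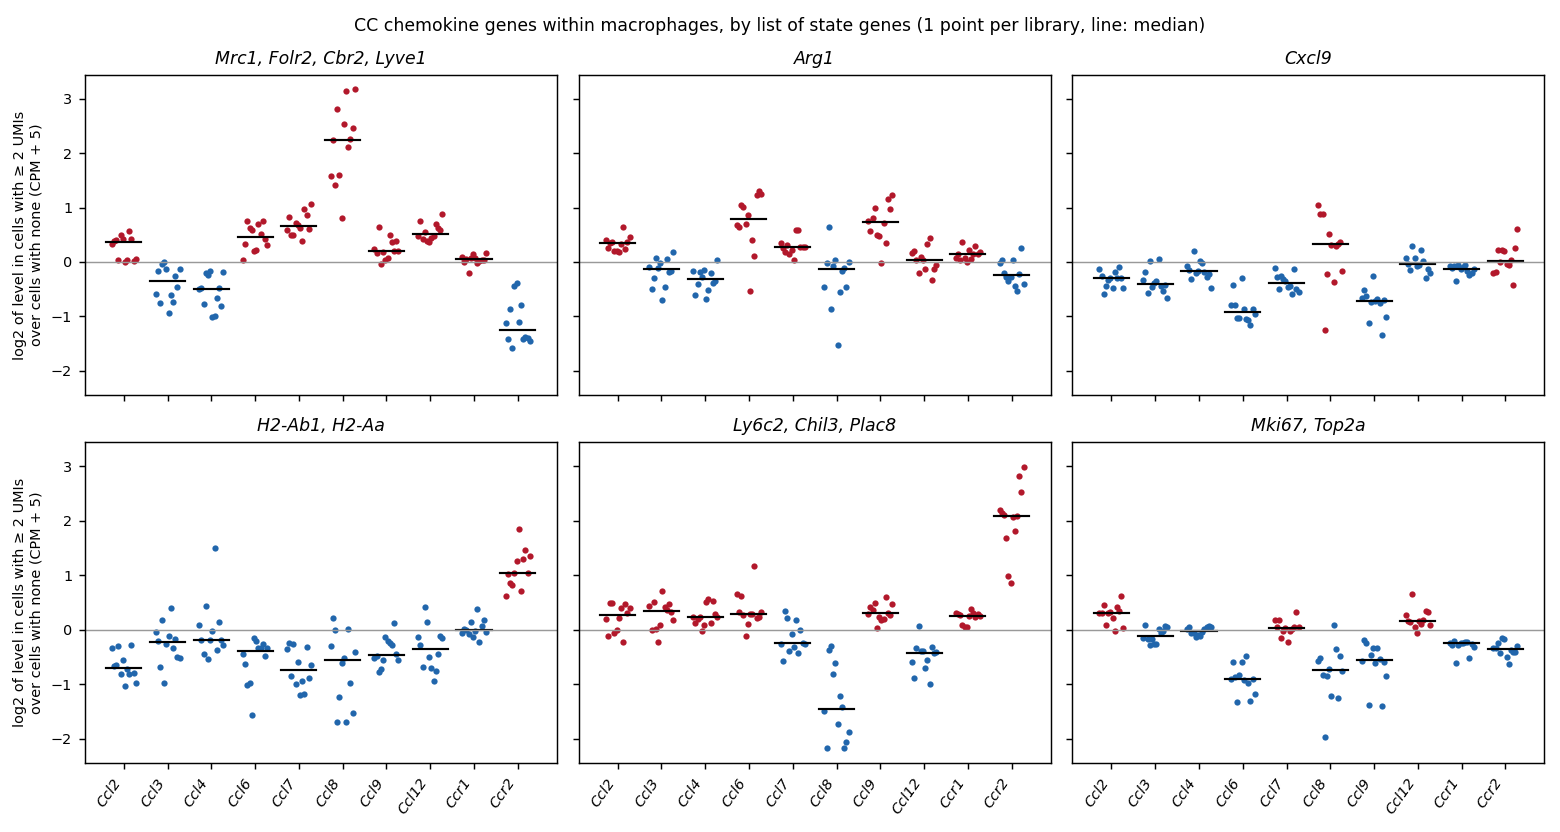
Log2 ratio (CPM + 5) of each gene in macrophages with at least 2 UMIs of the listed genes over macrophages with none, with 1 point per library and a line at the median; red marks a median above 0 and blue one below. Ccl8 and Ccr2 lie on opposite sides of 0 in the panels of Mrc1, Folr2, Cbr2, Lyve1 and of Ly6c2, Chil3, Plac8.

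Within other classes fewer libraries allowed such comparisons. Monocytes with Ace, Treml4 and Eno3, genes of patrolling monocytes (246 cells, 3 libraries), held less Ccl2 (median 307 against 1184 CPM), Ccl7 (65.2 against 213 CPM) and Ccl12 (92.9 against 280 CPM) in 3 of 3. Ccl4 (409 against 758 CPM), Ccl9 (383 against 500 CPM), Ccr1 (211 against 454 CPM) and Ccr2 (344 against 584 CPM) were also lower in 3 of 3. Ccl3, Ccl6 and Ccl8 had no single direction. All these cells had passed the monocyte gate, so they also held Ly6c2, Chil3, Vcan, F13a1 or Plac8. Among S100-high cells, those with and without Retnlg, a gene of blood neutrophils, differed little in Ccl4 (log2 ratio -0.09, lower in 6 of 6 libraries) and Ccr1 (-0.08, lower in 5 of 6). For Ccl3 the ratio was -0.57, lower in 4 of 6, and for Ccl6 it was 0.47, higher in 5 of 6. In the whole gate, cells with Retnlg were higher for Ccl6 (1.69), Ccl3 (1.13), Ccl4 (0.99) and Ccr1 (0.90) and lower for Ccr2 (-1.90), each in 7 of 7 libraries. The 2 sides of this comparison differ in makeup: 836 of the 909 cells with Retnlg were S100-high, against 1031 of the 2064 without. Retnlg is also a gene of the neutrophil gate, so cells without it joined by its other genes. T cells with and without Cd8a and Cd8b1 had no single direction for Ccl3 (higher in 6 of 11) or Ccl4 (7 of 11).

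Cell by cell, the strongest links joined the genes into 3 sets. In macrophages with a Ccl2 UMI, Ccl7 was at a median of 529 CPM against 69.0 CPM in macrophages without (log2 ratio 2.93, higher in 12 of 12 libraries). Ccl12 was at 1342 against 329 CPM (2.05, 12 of 12). Ccl3 and Ccl4 formed the second set: macrophages with a Ccl3 UMI held 1305 against 254 CPM of Ccl4 (2.31, 12 of 12). Ccl6 and Ccl9 formed the third: with a Ccl9 UMI, Ccl6 was at 488 against 158 CPM (1.60, 12 of 12). Links between the sets were weaker, at most 1.12 (Ccl7 in macrophages with a Ccl4 UMI), against 1.18 for Ccl9 in those with a Ccl6 UMI, the weakest link within a set. Ccl8 and Ccr2 were opposed, with Ccl8 at 204 CPM in cells with a Ccr2 UMI and 748 CPM in cells without (-2.01, lower in 12 of 12).

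In monocytes the links within these sets were also present. Those with a Ccl2 UMI held 511 against 14.8 CPM of Ccl7 (log2 ratio 4.12) and 329 against 41.1 CPM of Ccl12 (2.40), each higher in 11 of 11 libraries. With a Ccl3 UMI, Ccl4 was at 1547 against 256 CPM (2.40, 10 of 10), and with a Ccl9 UMI, Ccl6 was at 973 against 318 CPM (1.52, 11 of 11). The first 2 sets were less separate than in macrophages: with a Ccl3 UMI, monocytes also held more Ccl7 (1.41, 9 of 10) and Ccl12 (1.35, 9 of 10), against 1.19 for Ccl9 with a Ccl6 UMI (10 of 10). In S100-high cells, those with a Ccl3 UMI held 16058 against 1282 CPM of Ccl4 (3.12, 7 of 7). Depth was not matched between cells with and without a UMI.

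**Figure D4:**
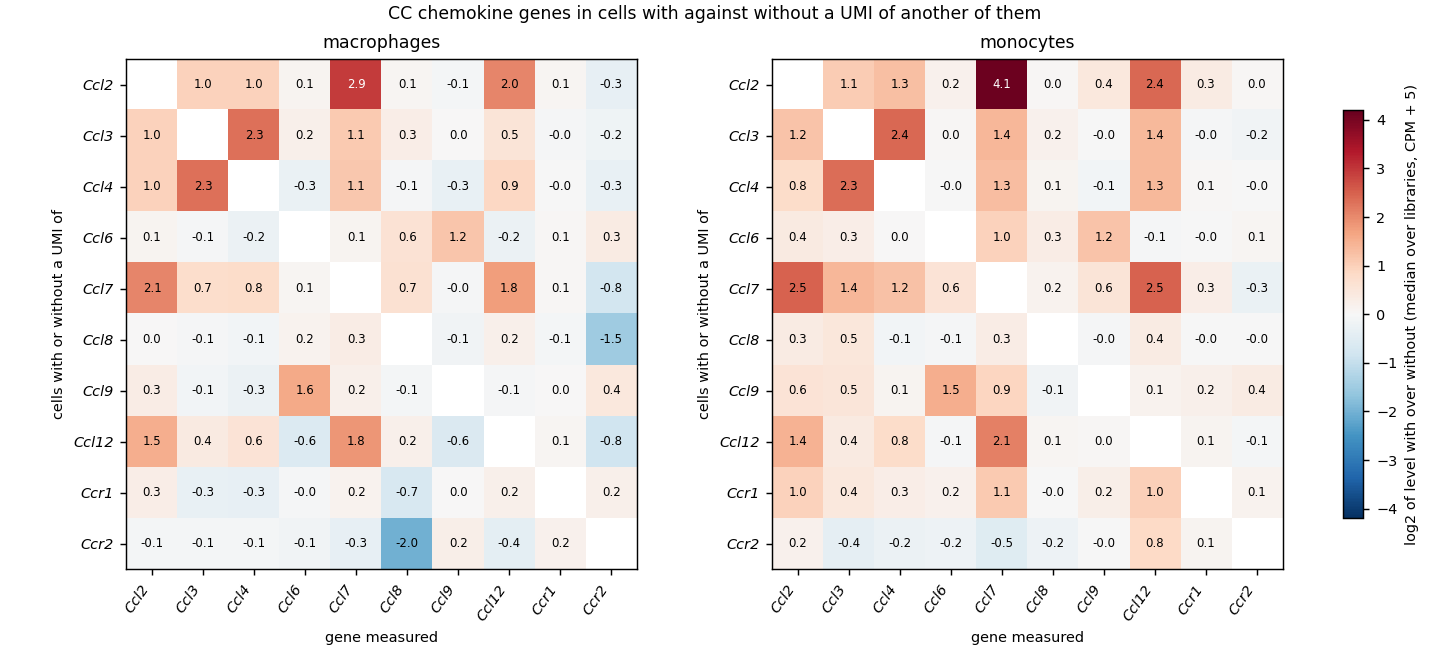
Median over libraries of the log2 ratio (CPM + 5) of the gene in each column, in cells with over cells without a UMI of the gene in each row, for macrophages (left) and monocytes (right). The blocks of Ccl2, Ccl7 and Ccl12, of Ccl3 and Ccl4, and of Ccl6 and Ccl9 are red in both, and the pair of Ccl8 and Ccr2 is blue in macrophages, while in monocytes it is near 0.

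Over 65 class and library sums of the 6 classes, the 3 genes most like each of the 10 were found by Pearson's r of log2(CPM + 5) among 7025 genes. The points share libraries and cell types, so these values are descriptions. Ccl3 and Ccl4 were most like each other (0.91), followed for both by the decoy receptor gene Tnfrsf23. Ccl7 was most like Ccl12 (0.94), then Trem2 and Msr1, and Ccl12 was most like Ms4a7 (0.96), then Trem2 and Rnase4. Ccl8 was most like Cbr2 (0.90) and Folr2 (0.90), then C1qa. C1qa is itself a gene of the macrophage gate, so any gene high in macrophages is bound to resemble it over these sums. Ccl2 was most like Tgfbi (0.93), Emp1 and Msr1. Ccl6 was most like Tlr4 (0.95), Cstb and Dmxl2, and Ccl9 was most like Fam129b (0.95), Pid1 and Gm21188. Ccr1 was most like Ier3 (0.95), Trem1 and Cd14. For Ccr2, Ms4a8a (0.78) and P2ry10b (0.75) were among the 3.

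Of the 12 other CC chemokines measured, 2 were above 50 CPM in macrophages and the same 2 in monocytes. Ccl5, a chemokine of T and NK cells among others, had medians of 255 CPM in macrophages and 286 CPM in monocytes, against 3102 CPM in dendritic cells, 3013 CPM in T cells and 2583 CPM in NK cells. Ccl24, a ligand of CCR3, had medians of 52.7 CPM in macrophages and 151 CPM in monocytes. Ccl17 (917 CPM) and Ccl22 (736 CPM), ligands of CCR4, passed this level in dendritic cells, and Ccl1, another ligand of CCR8, in T cells (198 CPM). Ccl17 was also at 574 CPM in the neutrophil gate. Among S100-high cells none of the 12 passed it.

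Among the other CC receptor genes, Ccrl2 passed 50 CPM in macrophages (439 CPM) and in monocytes (476 CPM). Ccrl2 encodes a chemerin-binding receptor that does not signal, and it had a median of 3115 CPM in S100-high cells (1075 to 6278 CPM). Ccr7, which was part of the dendritic gate, was at 954 CPM in dendritic cells. None of the 4 atypical receptor genes passed 50 CPM in any class.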

How the data were processed

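The libraries were 10x Genomics 3′ v3. The authors deposited a single matrix of raw UMI counts, genes by barcodes. The submitters' processing notes name Cell Ranger 2.1.1, Seurat and mm10, while the matrix header gives software version 3.0.2; the annotation is not given in the sources used here. Cells were kept if they had over 200 but under 5000 genes, with mitochondrial UMIs at 10% or less. A cell joined a class when exactly 1 lineage list passed its minimums (macrophages could also pass the monocyte list): at least 2 or 3 UMIs and 2 to 20 per 10000. Macrophages needed 20 C1q UMIs per 10000 and the other classes had under 10. Cells of 2 or more lists (10806) or none (8093), most of the 21696 left out, were not analysed further. No doublet caller was run; leaving out the 10% of barcodes with the most UMIs in each library and class was an alternative.

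UMIs were summed per class and library (at least 30 cells) and given as CPM. Log2 ratios used a pseudocount of 5 CPM. A gene counted as past the fold differed at least 2-fold in the same direction in every library with both classes, among genes with a median of 20 CPM in either. Shares of cells have exact Clopper-Pearson intervals at 95%, covering counting error only, and were also thinned to 500 UMIs as an expectation over all draws. Lists were positive at 2 UMIs in the comparison of states. The genes named are the 10 chemokine genes, other CC genes above 50 CPM and the 3 most alike genes per member. These genes, lists and gates were chosen with earlier results of these data known, and the S100a8 and S100a9 limit after seeing the values here. Other alternatives were stricter and looser gates, other mitochondrial limits, thinned cells, cells weighted equally, at least 100 cells, libraries pooled or left out in turn, libraries 1 to 6 and 7 to 12 alone, a pseudocount of 1 CPM and Spearman's rho. The scripts were tested on simulated data and used Python 3.11.15, numpy 2.4.6, pandas 2.3.3, scipy 1.17.1 and matplotlib 3.10.9. No comparison between groups of mice was made, because neither the labels nor the files give the group of a library. Values of some other genes in these lists are not reported here.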

Additional observations from a re-analysis of the deposited data

Results flagged for a closer look

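Cells outside the 6 classes also held these genes. In 151 plasmacytoid dendritic cells (Siglech, Klk1, Cox6a2), Ccl4 was at 3823 CPM over all libraries (exact Poisson 95% interval 3652 to 3999 CPM, counting error only), and 76.2% of the cells had a UMI of Ccl4. Macrophages were at 730 CPM by the same sum. Over the 6 libraries with at least 10 such cells, Ccl4 ran from 937 to 5246 CPM, and 3 cells of library 8 held 474 of the 1885 UMIs of Ccl4. In 24 cells of the basophil and mast cell list (Mcpt8, Cpa3, Ms4a2), Ccl2 was at 2809 CPM, with a UMI of Ccl2 in 21 cells, and Ccl7 was at 2760 CPM, with a UMI in 11 cells. The Ccl2 cells came from all 7 libraries that held such cells, whereas 143 of the 168 Ccl7 UMIs came from library 7, which had 5 such cells.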

How the results depend on the processing

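No paired analysis was possible because no comparison between groups of mice was made; each ratio between classes was taken within a library. For each gene, the log2 ratio of the leading class to the next was recomputed, and 221 of 230 values under an alternative stayed within 1 SD over libraries of the reported value with the same sign. For Ccl6, monocytes against the neutrophil gate (0.46) changed sign when UMIs were summed over all libraries (-0.78), when the 10% of barcodes with the most UMIs were left out (-0.049), with the mean over cells of UMIs per 10000 (-0.74), in S100-high cells (-1.52) and in libraries 7 to 12 (-0.41). Leaving out 1 library in turn gave 0.37 to 0.54 for Ccl6. An SD over libraries can be large: for Ccl3, the neutrophil gate against monocytes (3.18, SD 1.96) counts as within it at 1.60 in libraries 1 to 6, and its level of 1346 CPM was 4640 CPM with UMIs summed over all libraries. For Ccl4, the neutrophil gate against macrophages was 2.46, and 0.73 in libraries 1 to 6. For Ccl8, macrophages against NK cells was 4.28, and 4.84 with UMIs summed over all libraries. For Ccr1, the neutrophil gate against monocytes was 0.65, and 1.83 with S100-high cells. For Ccr2, monocytes against NK cells was 1.84, and 1.39 with at least 100 cells. Only library 5 had that many NK cells (178), so 1.39 is the value of that library alone. The cause of these differences was not tested; the alternatives with S100-high cells and with 1 set of libraries, chosen after seeing the data, use fewer cells or libraries. The numbers of the 10 chemokine genes past the 2-fold limit stayed within 1.5 times under all 28 alternatives. These were only a pseudocount of 1 CPM and the omission of library 4, for each count. The percentages over all genes were not checked in this way. With Spearman's rho, the 3 most alike genes shared at least 1 with those by Pearson's r for 9 of the 10, and none for Ccl6. Low levels in the 469 NK cells rest on few UMIs.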
